A study of Homo sapiens with 31 samples.

Results

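The RNA-seq comparison of an EIF4A1 knockout line with its naive counterpart comprised 4 of the 31 libraries of the series, chosen by their labels: 2 from naive cells and 2 from EIF4A1 KO cells. Both lines are HEK293 T-REx, a human embryonic kidney line that carries a repressor for inducible transgenes, and the titles and sample characteristics of these libraries name no drug or siRNA. The naive group has the genotype Naive and the other group the genotype EIF4A1 KO. The labels give neither the edit that made the knockout nor whether the line is a single clone, and they do not say that the replicates came from separate cultures, so the p-values measure the spread between these libraries only. The wider series asks how eIF4A1 and LARP1 restrain translation when the mTORC1 kinase complex is blocked. Other libraries of that series were set beside the comparison. They were ribosome footprints in DMSO of naive, EIF4A1 KO and EIF4A2 KO cells, and input RNA from pulldown experiments. The inputs came from cells expressing tagged eIF4A1, without siRNA or after 72 h of control siRNA, and from cells expressing tagged eIF4A2.

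eIF4A1 is the abundant DEAD-box RNA helicase of the eIF4F complex, in which it unwinds the 5' leader of capped mRNAs so that the small ribosomal subunit can load. eIF4A2 is its close paralog, and eIF4E and eIF4G are the cap-binding and scaffold subunits. Because the helicase acts in translation, a change of mRNA level in its absence is a separate readout from a change of ribosome footprints, and both were measured in these lines.

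The counts are listed by Ensembl transcript ID, with no gene name beside it in the files. No reference table used here links these IDs to genes either, so results are given for transcripts and groups of transcripts, with 4 identified by ID. The transcripts of EIF4A1 itself, marker genes of HEK293 and of other cell types, and pathway lists were not picked out, and the genotype of each library rests on its label. Rows with equal counts in every file were collapsed, and 1 transcript was kept per group of neighbouring, co-varying rows, called a locus here. That left 35499 loci, with 19706862 to 21631521 counts in the 4 RNA-seq libraries. A locus is not a gene: neighbouring rows that co-varied less were kept apart, so 1 gene may supply several loci. Replicates differed by more than counting noise, with a chi-square per degree of freedom of 2.44 between the naive and 1.68 between the KO libraries.

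Loss of EIF4A1 was accompanied by many small shifts of RNA level and by a smaller number of large ones, most of which were falls. Of 25744 loci tested, 9390 (36.5%) were called at an adjusted p under 0.05 by edgeR's quasi-likelihood test, 4653 (18.1%) higher and 4737 (18.4%) lower in the KO line. The median size of a called change was 0.45 log2 units. Of the called loci, 1959 differed by 1.5- to 2-fold and 1053 by 2- to 4-fold. Changes of more than 1 log2 unit were uneven: 330 loci (1.28% of those tested) rose by that much and 1039 (4.04%) fell. Among these large changes, 316 were of more than 4-fold, 36 of them higher and 280 lower. The 330 risers held 0.204% and 0.1999% of the counts in the naive libraries and 0.465% and 0.465% in the KO libraries. The 1039 fallers went from 1.21% and 1.22% to 0.479% and 0.479%. Loci with large changes thus held little of the counted RNA, and 61.9% to 62.3% of the counts in each library came from loci called with a change of 1 log2 unit or less. The 2 groups did not overlap at 9363 of the 9390 called loci, against 17183 of all 25744 tested. With the DESeq2 Wald test on the same loci 5441 were called, and with every distinct transcript tested 26611 of 64352.

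**Figure D1:**
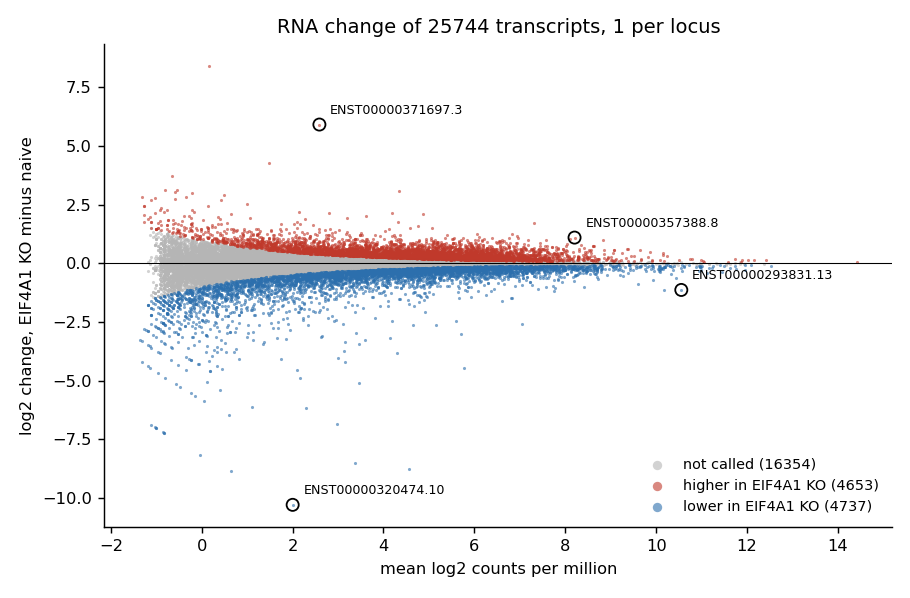
Each point is 1 of 25744 loci, with the mean log2 CPM (counts scaled to a common library total) over the 4 RNA-seq libraries on the x axis and the fitted log2 change, EIF4A1 KO minus naive, on the y axis. Red marks the 4653 loci called higher, blue the 4737 called lower, grey the rest, and open circles the 4 transcripts described by ID. Falls of more than 1 log2 unit are more frequent than rises, above all at low levels, where fitted changes of loci with counts near 0 depend on the prior count.

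Large falls were mostly at low levels. Among the 3110 loci with a mean of at most 1 CPM, 401 fell and 105 rose by more than 1 log2 unit. Between 1 and 4 CPM these counts were 416 and 118 of 6468. Between 16 and 64 CPM they were 56 and 27 of 6029, and in the most abundant class, 511 loci, 3 and 2. The direction of all calls also turned with level. Among the 2648 loci in the class that begins at 64 CPM, 36.6% were called higher and 29.3% lower, whereas among the 511 most abundant 25.8% were called higher and 45.2% lower. The median change of that most abundant class was -0.048 log2 units, and the median size of its called changes was 0.20. More abundant loci have more counts behind them, so smaller changes pass the test there. The filter asks for enough counts in 2 of the 4 libraries, so a locus at low level can pass it through the higher line alone. How far this adds to the large changes at low levels was not tested. At a mean of at most 1 CPM almost only large changes were called. There 401 of 404 loci called lower and all 105 called higher changed by more than 1 log2 unit, and the median called size was 1.71.

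The transcript with the largest rise, among called transcripts with at least 5 CPM in both libraries of the higher group, was ENST00000371697.3. It stood at 0.139 and 0.248 CPM in the naive libraries (3 and 5 counts) and at 11.4 and 12.3 CPM in the KO libraries (232 and 243 counts). The groups were far apart, with a log2 change of 5.91 (SE 0.27, edgeR adjusted p 6.35e-18). In 6 input libraries from cells expressing a tagged eIF4A it had 0 to 3 counts, so among these RNA libraries the KO line stood alone. Its DMSO footprints followed, with 0 and 2 counts in naive and 11 and 14 in KO cells.

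The most abundant transcript among those that rose by more than 1 log2 unit was ENST00000357388.8, which shares all its counts with 1 other transcript. It stood at 187.3 and 189.1 CPM in naive and 405.0 and 399.3 CPM in KO cells, a log2 change of 1.10 (SE 0.035, edgeR adjusted p 1.09e-21). The replicates of each line lay close together relative to the gap. The 6 inputs lay between, from 218.6 to 347.0 CPM. Footprints rose by a similar amount, from 359.0 and 324.7 to 799.3 and 811.4 CPM (log2 change 1.24, SE 0.059, edgeR adjusted p 5.72e-34), while in EIF4A2 KO footprints it stood at 347.8 and 352.8 CPM. All 20 distinct rows within 10 rows of it in the files were also higher, with a median log2 change of 0.96. These values come from the fit of every distinct transcript, and 13 of them lay within 0.25 log2 units of its own change. Neighbouring rows can hold the same reads, so the 20 are not independent of it or of each other. Among loci with an average log2 CPM of 2 or more, 52.8% had a change above 0.

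The largest fall by the same rule was that of ENST00000320474.10, 1 of 31 transcripts with identical counts in all libraries, so the reads cannot be assigned to 1 of them. It had 181 and 139 counts (8.39 and 6.88 CPM) in the naive libraries and 0 in both KO libraries. Against a floor of 3 counts over both KO libraries, it was at least 101.6-fold lower (edgeR adjusted p 1.19e-15). Footprints showed the same loss: 19 and 17 counts in the naive line, 0 and 0 without EIF4A1, against 46 and 51 without EIF4A2. Absence was not particular to the knockout: the SBP-eIF4A1 inputs, where SBP is a streptavidin-binding peptide tag, also had 0 counts in both libraries. The SBP-eIF4A1 inputs with control siRNA had 20 and 17, and the SBP-eIF4A2 inputs 93 and 78.

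The most abundant transcript among those that fell by more than 1 log2 unit was ENST00000293831.13. It stood at 2071 and 2057 CPM in naive and 942.9 and 937.2 CPM in KO cells, with a log2 change of -1.13 (SE 0.027, edgeR adjusted p 1.72e-25). Whether it is a transcript of EIF4A1, the edited gene, was not checked, because its ID could not be linked to a gene. A fall that belongs to the edit itself and a change at another gene cannot be told apart here. The KO libraries lay below the naive pair and below all 6 inputs, which ran from 1852 to 3120 CPM. Footprints fell further, from 2479 and 2569 to 488.5 and 573.1 CPM (log2 change -2.25, SE 0.057, edgeR adjusted p 1.06e-56), and in EIF4A2 KO cells they stood at 2245 and 2287 CPM. Of 20 distinct rows within 10 rows of it, 8 had a fitted RNA change within 0.25 log2 units of its own, from -1.17 to -1.09. All 8 lie after it in the files, where the other 2 rows changed by 1.15 and -0.012. Before it, the row next to it changed by 1.69, the highest value. The rows 2 to 8 before it changed by 0.031 to 0.26, and the farthest 2 by -0.76 and -0.72. Over both sides 11 of the 20 were lower, with a median log2 change of -0.37. These values come from the fit of every distinct transcript. Neighbouring rows can hold the same reads: 26549 of the 94734 transcripts with a count shared all their counts with another.

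**Figure D2:**
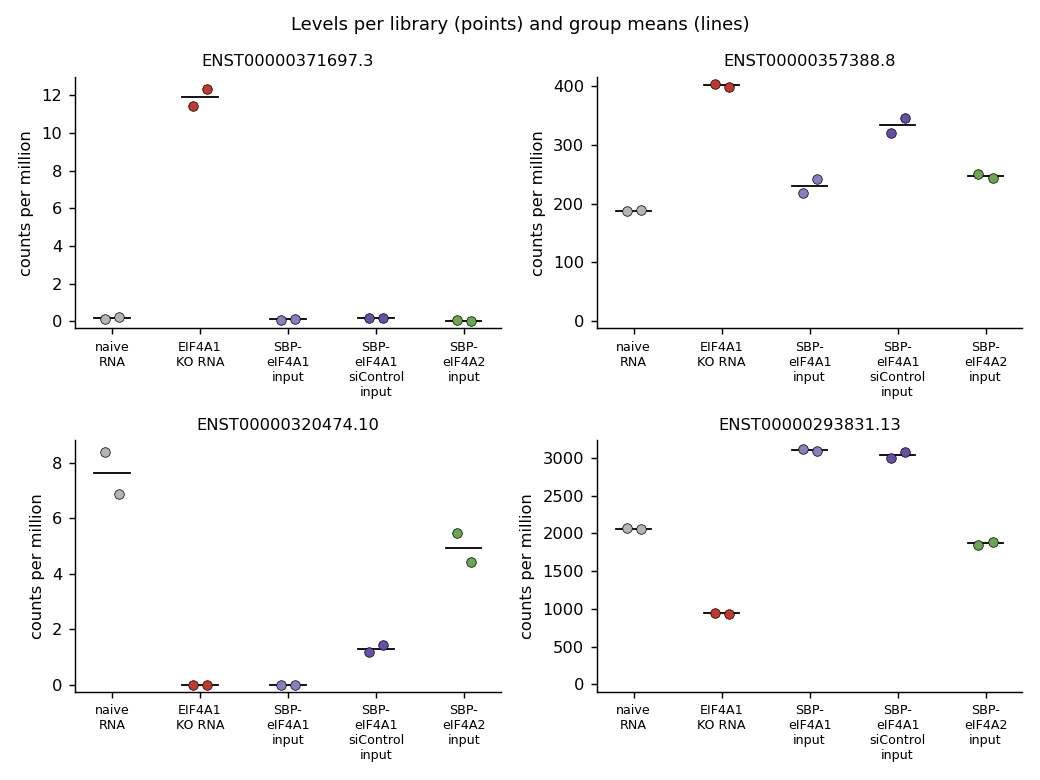
Each panel gives 1 transcript, with CPM on a linear y axis and 5 groups of RNA libraries on the x axis; points are the 2 libraries of a group and lines their mean. ENST00000371697.3 is above 1 CPM in the EIF4A1 KO libraries alone, ENST00000320474.10 is at 0 in the KO libraries and in the SBP-eIF4A1 inputs without siRNA, and the KO libraries lie outside the range of the others for both abundant transcripts.

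Few transcripts were present in one line and nearly absent from the other. With at least 5 CPM in both libraries of one line and at most 3 counts in each library of the other, 4 loci were lost in the KO line and 0 gained. The 0 depends on that limit: ENST00000371697.3, with 3 and 5 counts in the naive libraries against 232 and 243 in the KO libraries, exceeds it in 1 naive library. The 4 lost loci had 6.88 to 50.1 CPM in the naive libraries. One of them, at 42.7 and 50.1 CPM in naive cells and with 1 and 3 counts in the KO libraries, was at 32.8 to 50.3 CPM in all 6 inputs. The other 3 varied between the input groups, from under 1 CPM in at least 2 libraries to over 5 CPM in at least 1. Footprints of the 4 loci summed to 3 to 296 counts in the naive and 0 to 6 counts in the EIF4A1 KO libraries.

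Among well-counted loci the direction of change varied with the length listed in the files, whose unit is not stated. Above 16 CPM, 44.0% of the 1522 loci with a length over 800 and up to 1600 were called higher and 17.7% lower. Among the 408 loci with a length over 50 and up to 100, 12.7% were called higher and 34.8% lower. The median change rose from -0.093 log2 units in the shortest class to 0.126 in the longest. Across 9188 such loci Spearman's rho of change and length was 0.20, and across all 25744 tested it was 0.017. Both KO libraries showed it relative to the naive mean. Loci of length up to 200 stood at -0.048 and -0.047, and those over 800 at 0.126 and 0.114. The naive libraries stood at 0.0078 and -0.0078 in the longer class, values that mirror each other because the reference is their own mean. Loci share library preparation and depth, so no p is given, and what moves with length in these libraries was not tested.

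**Figure D3:**
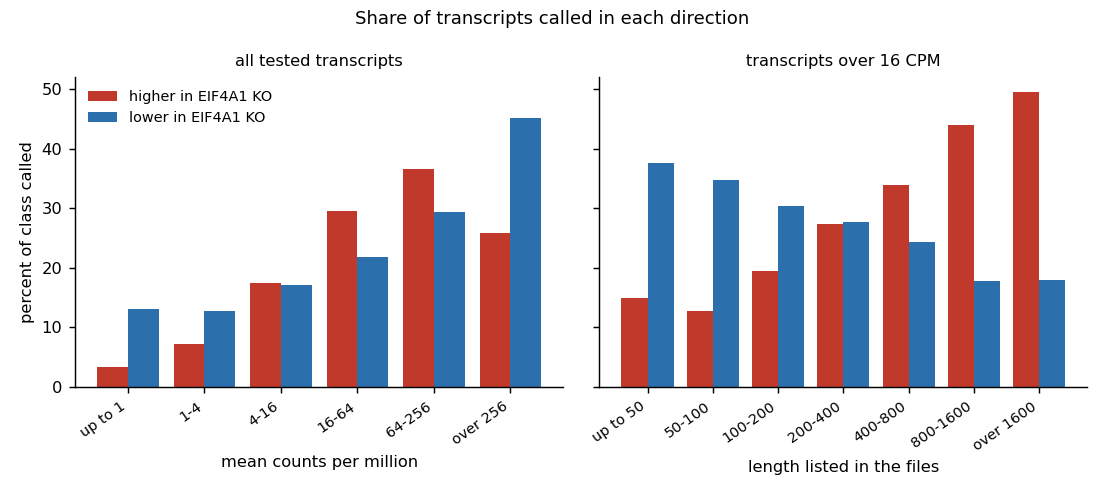
Bars give the percent of loci in a class that were called higher (red) or lower (blue) in EIF4A1 KO cells, by mean CPM for all tested loci (left) and by listed length for loci over 16 CPM (right). The share called higher is 14.9% in the shortest and 49.6% in the longest class, and the share called lower is 37.6% in the shortest and 17.7% in the class of 800 to 1600.

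RNA changes were set beside ribosome footprints of the same lines in DMSO, which come from separate libraries. In footprints edgeR's quasi-likelihood test called 4548 of 18122 loci (25.1%), 2217 (12.2%) higher and 2331 (12.9%) lower. Rises of more than 1 log2 unit made up 247 of them (1.36% of those tested) and falls 552 (3.05%). Leaving out 1 library moved this count by more than 1.5 times in 2 cases, to 2801 without naive DMSO replicate 2 and to 2546 without EIF4A1 KO DMSO replicate 1, and the DESeq2 Wald test gave 1768. Of the 7749 loci called in RNA and tested in footprints, 2857 (36.9%) were called in both, 1319 higher in both and 1236 lower in both. The other calls were opposed, 197 with higher RNA and lower footprints and 105 the reverse. Across 17976 loci Spearman's rho between both log2 changes was 0.44.

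The large RNA changes were followed in part. Of the 330 loci that rose by more than 1 log2 unit, 144 had enough footprints to be tested, and 75 of these were called higher and 1 lower. Their median log2 change was 0.86 in footprints and 1.18 in RNA. Of the 1039 that fell, 279 could be tested in footprints, with 154 called lower and 0 higher at an adjusted p under 0.05. Their medians were -0.91 in footprints and -1.37 in RNA. Whether the footprint and RNA changes differed was not tested for these groups. Loci not called in RNA had a median footprint change of -0.0018, with 7.72% called higher and 8.51% lower.

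Both lines were set beside input RNA from 3 further groups of HEK293 T-REx libraries. The inputs came from SBP-eIF4A1 cells, from SBP-eIF4A1 cells after 72 h of control siRNA and from SBP-eIF4A2 cells, with 2 libraries each. Of 107 loci that rose by more than 1 log2 unit and had an average log2 CPM, as edgeR computes it with a prior count, of 2 or more, 89 (83.2%) lay above all 6 inputs in both KO libraries, and 21 (19.6%) lay below all inputs in both naive libraries. Of 229 such fallers, 129 (56.3%) lay below all inputs in the KO libraries and 55 (24.0%) above all inputs in the naive libraries. The levels of the fallers relative to the inputs varied with the input group. Relative to the SBP-eIF4A1 and SBP-eIF4A2 inputs their median log2 levels were -0.039 and -0.026 in the naive and -1.44 and -1.47 in the KO line. Relative to the inputs with control siRNA they were 0.92 in the naive and -0.59 in the KO line. All tested loci, which include those at lower levels, already stood at 0.28 in the naive and 0.27 in the KO line relative to those siRNA inputs. At the level of the fallers and outside the 4 blocks described below, the median of the siRNA inputs relative to the naive mean was -0.16 and -0.21. The values of the fallers there include this shared shift, so they do not show that the naive line lay farther away. Among all tested loci the KO libraries lay above the inputs at 22.8% and below them at 15.9%, and the naive libraries at 19.0% and 13.8%. Those shares also include loci at lower levels than the risers and fallers above. These loci were chosen for a difference between the KO and naive libraries, so 1 of the 2 lines had to stand apart at many of them. Inputs with LARP1 siRNA were not used here. The inputs are lysates of pulldown experiments and differ from the RNA-seq libraries in handling as well as in line.

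Changes were not spread evenly along the files. When the 16298 loci at or above that same average log2 CPM were put in file order and the median change was taken over each locus and 50 on either side, 95% of the running medians lay between -0.21 and 0.395. Runs beyond 0.3 in size formed 4 blocks, 2 higher and 2 lower in the KO line, named H1, H2, L1 and L2. These are a description, since the RNA changes themselves chose them, and the counts below carry no test. The files do not place transcripts on chromosomes, so a block is given as a stretch of rows. Whether it is also a genomic interval was not checked. Transcripts near each other in the files can share reads, and a gene may supply several of the 114 to 252 loci of a block.

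Block H1 spanned file rows 47021 to 50719. Of its 201 loci, 94.5% had a change above 0 and 170 (84.6%) were called higher, with a median log2 change of 0.55, or 1.47-fold. ENST00000357388.8 lies in it, and so does ENST00000320474.10, 1 of only 2 loci there that fell by more than 1 log2 unit among those at this level, which it only just reaches. Relative to the naive mean and to loci outside the blocks, H1 stood at 0.56 and 0.54 log2 units in the KO libraries. The 6 inputs lay between -0.132 and 0.071. The naive libraries stood at 0.008 and -0.008, which mirror each other because the reference is their own mean. The KO line alone was high among these RNA libraries. In footprints, which did not choose the block, the EIF4A1 KO libraries were at 0.49 and 0.47, the EIF4A2 KO libraries at -0.21 and -0.20, and 96 of 192 loci were called higher in EIF4A1 KO against 4 lower.

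Block H2, at file rows 196183 to 199987, held 252 loci, of which 186 (73.8%) were called higher, with a median log2 change of 0.445, or 1.36-fold. The KO RNA libraries stood at 0.44 and 0.455 and the 6 inputs between -0.049 and 0.046. In footprints the EIF4A1 KO line was at 0.44 and 0.43. Here the EIF4A2 KO line was also high, at 0.33 and 0.365 relative to the same naive libraries, unlike in H1. Of 237 loci tested in footprints, 108 were called higher and 3 lower in EIF4A1 KO cells. Outside the blocks, 12.8% of loci were called higher in footprints, and in RNA 23.9% were called higher and 21.7% lower.

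**Figure D4:**
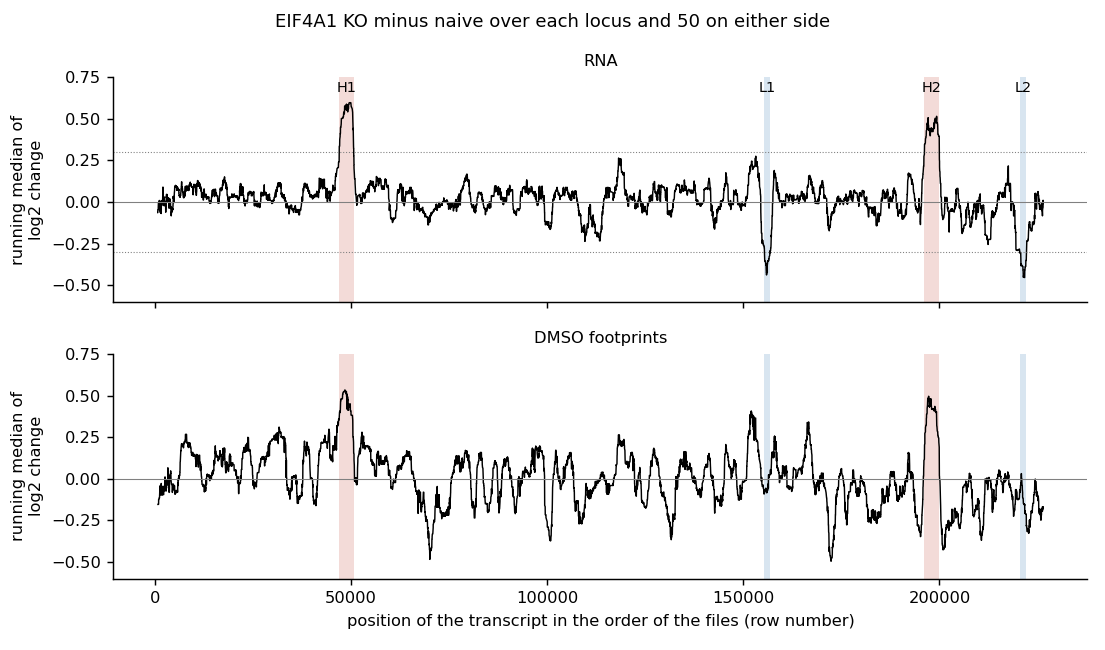
The running median of the log2 change, EIF4A1 KO minus naive, over each locus and 50 on either side is drawn against row number in the files, for RNA (top) and DMSO footprints (bottom); shading marks blocks chosen from RNA, red for higher and blue for lower, and dotted lines mark 0.3 and -0.3. H1 and H2 rise in both panels, whereas L1 and L2 dip in RNA and not to the same depth in footprints, whose running median varies more along its whole length.

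The 2 lower blocks were shallower and behaved otherwise. Block L1 (file rows 155417 to 156857, 114 loci) had a median log2 change of -0.37 with 68 loci called lower, and L2 (rows 220471 to 222204, 117 loci) one of -0.41 with 81 called lower. In footprints the median changes were -0.066 and -0.116, with 10 of 103 and 24 of 113 loci called lower, against 14.1% outside the blocks. In RNA the inputs of SBP-eIF4A1 cells, with and without control siRNA, were as low as the KO line or lower, from -0.56 to -0.425 in L1 and from -0.62 to -0.53 in L2. The SBP-eIF4A2 inputs stood at -0.21 and -0.19 in L1 and at -0.057 and -0.043 in L2. In the lower blocks the KO line thus did not stand apart from all other RNA libraries. The median listed length was 189.5 in L1 and 303 in L2, against 319 outside.

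**Figure D5:**
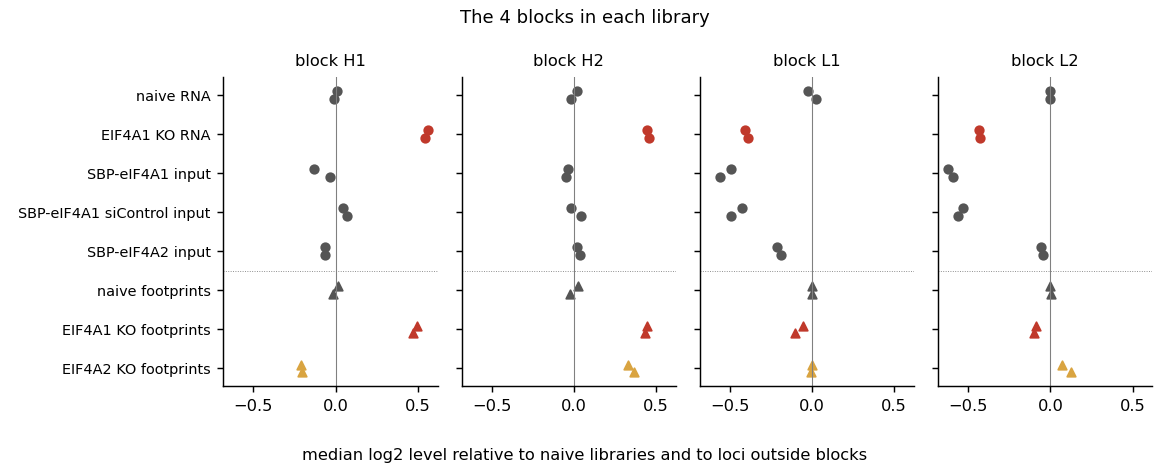
Points give, for each library, the median log2 level of the loci of a block relative to the naive libraries of the same assay and to loci outside the blocks (for inputs, relative to naive RNA); circles are RNA and triangles footprints, red marks EIF4A1 KO and orange EIF4A2 KO. In H1 and H2 the EIF4A1 KO libraries of both assays lie between 0.43 and 0.56, and in L1 and L2 the SBP-eIF4A1 inputs lie as low as the KO RNA libraries or lower.

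The higher blocks account for a limited part of the calls. H1 and H2 held 2.78% of the loci at this level and 8.67% of those called higher, and L1 and L2 held 1.42% of the loci and 4.21% of those called lower. Outside the blocks 3739 loci were called higher and 3381 lower. DNA copy number was not measured in these files, and neither it nor any other property that neighbours may share was tested.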

How the data were processed

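The 4 RNA-seq libraries were compared as labelled (2 EIF4A1 KO, 2 naive). They were made with a stranded mRNA kit, per the labels' protocols. CASAVA 1.8, STAR 2.7.0a and build hg38 are named in the submitters' processing notes, and the counting tool and annotation are not given in the sources used here. The authors deposited raw counts per Ensembl transcript with no normalization, plus a length per transcript of unstated unit (other). That length was used to rank loci, to sort them into length classes and to give block medians, and not to scale counts. No count was recorded for the 126981 transcripts that lack a length.

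Of 94734 transcripts with a count, rows equal in all 31 files were collapsed to 77343. In order of total count, a row was dropped when its log2 CPM (pseudocount 0.5) correlated at 0.9 or more with a kept row within 10 rows, which left 35499. This replaces the intended row per gene, because no table used here pairs the IDs with genes. Gene lists, cell type markers, chromosome medians and the check of EIF4A1 were not run for that reason. Tests used edgeR 4.0.16 in R 4.3.3 (TMM, filterByExpr with minimum count 10 and total 15, glmQLFit, glmQLFTest, two-sided, Benjamini-Hochberg), checked on simulated data. SEs were taken as the log2 change divided by the square root of F. DMSO footprints were fitted likewise on their 4 libraries. The 4 named transcripts are, in each direction, the largest change and the most abundant one past 1 log2 unit. The members, lists and rules were chosen with earlier results of these data known. Blocks and their settings were chosen after the data were seen. Counting intervals and floors cover counting error only.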

Additional observations from a re-analysis of the deposited data

How the results depend on the processing

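The RNA call count of 9390 was within 1.5 times of its value with RLE or upper-quartile scaling, without a filter, with at least 1 CPM in 2 libraries, at an adjusted p under 0.01 (6819) and with a locus reduction from the 27 other libraries, an alternative added after the data were seen (9356). Leaving out 1 RNA-seq library gave 7414 to 8279 calls (3662 to 4131 higher, 3705 to 4148 lower). The DESeq2 Wald test gave 5441 (2705 higher, 2736 lower). Testing all distinct transcripts gave 26611 (13344 higher, 13267 lower), where neighbouring transcripts can hold the same reads. Footprint calls fell to 2546 to 3816 when 1 library was left out (1201 to 1791 higher, 1345 to 2025 lower) and to 1768 with DESeq2 (913 higher, 855 lower). The cause of the gap between tools was not tested. With the replicate number as a block, RNA calls were 8999 and footprint calls 4448; the labels do not say that numbers pair the samples, and the replicate differences of both lines correlated at -0.047 in RNA and -0.015 in footprints. The 4 named transcripts kept their direction and call in all 13 alternatives. Block medians ranged over 12 alternatives from 0.52 to 0.58 (H1), 0.42 to 0.49 (H2), -0.40 to -0.35 (L1) and -0.43 to -0.39 (L2). Fits without 1 library assume that the lone sample varies like the other group. Depth limits the comparison of assays: 17976 of the 25744 loci tested in RNA had enough footprints.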

Other observations

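The row just before ENST00000293831.13 in the files, picked out after its values were seen, has a short counted region (listed length 41) and changed the other way in RNA. It stood at 1.99 and 1.83 CPM in the naive and 6.26 and 6.15 CPM in the EIF4A1 KO libraries (log2 change 1.69, SE 0.19, edgeR adjusted p 1.67e-08). It had only 43 and 37 counts in naive RNA, against 833 and 1157 in naive DMSO footprints. How reads were assigned between this row and its abundant neighbour was not tested. Its DMSO footprints were lower in the KO line (log2 change -2.10, edgeR adjusted p 1.21e-30), close to the change of ENST00000293831.13. In the SBP-eIF4A1 inputs it stood at 71.4 and 72.2 CPM, and at 32.0 and 29.6 CPM after control siRNA, against 5.17 and 5.16 CPM in the SBP-eIF4A2 inputs. The row just after ENST00000293831.13 (listed length 65) was similar, with an RNA log2 change of 1.15 in the fit of every distinct transcript. Its DMSO footprints were 251 and 371 counts in naive and 21 and 24 in EIF4A1 KO cells.

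The blocks were looked for under 5 other settings. A block counted as met again when any run in the same direction overlapped it. By that rule all 4 were met with 25 or 100 loci on each side and with a minimum running median of 0.4 in size. They were also met when only loci with an average log2 CPM of 4 or more were kept. With a minimum of 0.2 they were met too, which could not turn out otherwise. The same RNA changes were used throughout, so this describes only how the blocks depend on the settings. With 25 loci on each side there were 8 blocks, with the minimum of 0.2 there were 10, and the other 3 settings gave 4. In footprints, 95% of the running medians lay between -0.32 and 0.36, a wider range than in RNA.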
